A study of Mus musculus with 2 samples.

Results

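Luminal cells with a proximal or urethral profile were examined in single-cell RNA profiles of mouse prostate. They were selected on natural log values of gene level. The gate asked for Epcam and Krt8 above 0, Krt5 below 1 and Ptprc at 0. It was meant to select luminal epithelium and to limit basal cells and leukocytes, and it allowed low Krt5. Each gated cell was scored by its mean value of Wfdc2, Msln, Krt4, Cbr2 and Cyp2f2, and the top 7% were kept. This gave 758 cells (called members here) out of 10822 gated cells and 15742 cells in all. The mice were R26 mTmG/hAR:Osr1 Cre/+ on a mixed C57BL/6 and 129S1/SvImJ background. In these mice, Osr1-driven Cre switches on a human androgen receptor transgene (hARtg) and membrane-bound green fluorescent protein (mGFP) in the Osr1 lineage, so both alleles were carried in each tissue. Per the labels, 1 library came from prostatic intraepithelial neoplasia (PIN, 6 months of age according to the methods of the study) and 1 from prostatic adenocarcinoma (PCa, 12 months). The series used here held no mice without the transgene. Cell barcodes ended in _1 or _2, and neither the labels nor the column names tie an ending to a tissue. All values are therefore given per suffix, and no suffix is read as PIN or PCa. With 1 library per suffix and no replicates, no test was made, and every interval below is a 95% interval that covers counting error only.

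The mouse prostatic ducts leave the urethra through a proximal region and branch into distal acini. Luminal cells near the urethra are known for mucosal defence proteins and for genes such as Psca and Ly6a. Distal luminal cells secrete androgen-regulated seminal proteins such as probasin (Pbsn). Of the genes in the score, Wfdc2 encodes a secreted protein with a whey acidic protein domain, Msln the cell surface protein mesothelin, Krt4 a keratin of mucosal epithelia, Cbr2 a carbonyl reductase and Cyp2f2 a cytochrome P450. Cxcl17, a mucosal chemokine, is another marker of these cells and was not in the score.

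The members were split unevenly over the suffixes. In suffix _1, 673 of 3121 gated cells were members (21.6%, exact Clopper-Pearson interval 20.1 to 23.1%). In suffix _2, 85 of 7701 were members (1.10%, 0.883 to 1.36%). The 2 intervals do not overlap, but the score fixed the total and the libraries differ in their mix of cells: gated cells were 49.3% of suffix _1 and 81.8% of suffix _2. Members held a median of 27227 UMIs (captured RNA molecules) per cell in suffix _1 and 15752 in suffix _2, close to the 27208 and 17450 of the other gated cells. The median mitochondrial share was higher in members, at 5.43% against 3.66% in suffix _1 and 6.44% against 5.23% in suffix _2. The part of this difference in the results was not tested. Of all barcodes, 67 occurred under both suffixes. Such a barcode was carried by 8 members, and 0 of them were members under both suffixes.

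The cut fell in a continuous score. The last cell inside scored 1.0127 and the first cell outside 1.01265, with 71 members within 0.1 above the cut and 93 gated cells within 0.1 below it. A score of 0 was found in 6096 gated cells (56.3%). Median member scores were 1.67 in suffix _1 and 1.497 in suffix _2. All 5 genes of the score were seen in 146 members of suffix _1 (21.7%) and in 20 of suffix _2 (23.5%). The fewest seen in any member was 2, in 14 and 12 cells.

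Because the score chose the cells, the levels of its genes describe the selection. Each level is a CPM value: a gene's UMIs, summed over cells, per 1000000 UMIs of the same cells. Wfdc2 was at 4371 CPM in members and 243 CPM in the other gated cells of suffix _1, and at 3243 and 10.8 CPM in suffix _2. Its mean difference over the suffixes was the highest of all genes with at least 50 CPM in both. Msln stood at 193 against 8.18 CPM in suffix _1 and at 1397 against 5.18 CPM in suffix _2. Only 30.9% of suffix _1 members held an Msln UMI, compared with 75.3% of suffix _2 members. Krt4 reached 467 against 41.8 CPM and 291.5 against 10.5 CPM. In suffix _2, 36.1% of the Krt4 UMIs of members came from a single cell. Cbr2 gave 1211 against 100.1 CPM and 375 against 11.9 CPM, and Cyp2f2 gave 359 against 37.0 CPM and 151 against 5.42 CPM. Wfdc2, Krt4, Cbr2 and Cyp2f2 were thus higher in suffix _1 members than in suffix _2 members, and Msln was higher in suffix _2.

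**Figure D1:**
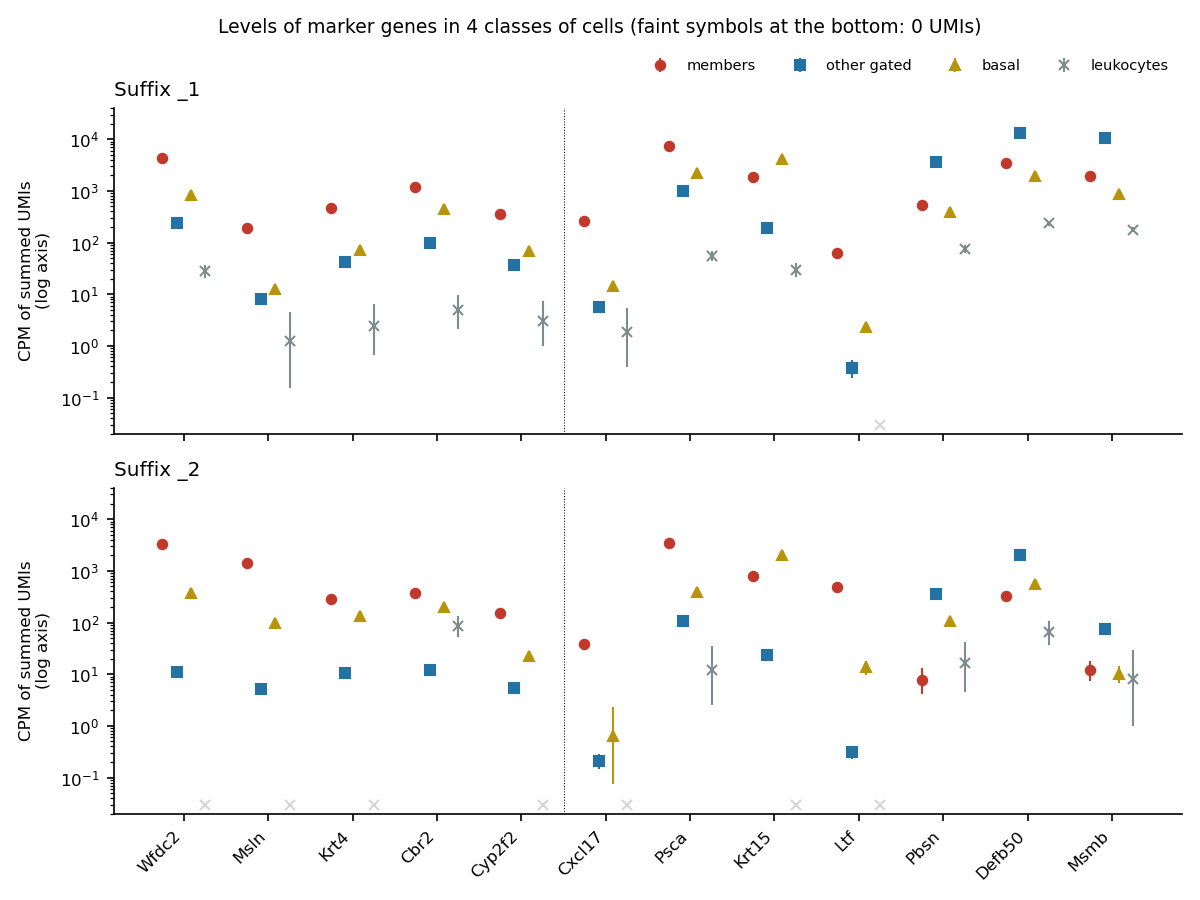
CPM of summed UMIs (log axis) for 12 genes in members, other gated cells, basal cells and leukocytes of each suffix, with 95% Poisson intervals; the dotted line ends the 5 genes of the score. Members lie above the other gated cells for Cxcl17, Psca, Krt15 and Ltf and below them for Pbsn, Defb50 and Msmb in both suffixes, although Defb50 and Msmb turn in suffix _2 (0.69 and 3.66 on the log2 scale) with the top 7% taken within each suffix.

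The label was checked with Cxcl17. Members of suffix _1 held 265 CPM of Cxcl17 and the other gated cells 5.73 CPM. In suffix _2 the levels were 38.0 and 0.206 CPM. The suffix _2 member level came from 64 UMIs in 12 of 85 cells, with 70.3% of them in 5 cells. In suffix _1, 4390 of the 5622 member UMIs lay in 191 cells, sub-cluster 0 of the clustering described below. After each cell was thinned to 3000 UMIs, 30.3% of suffix _1 members held a Cxcl17 UMI (26.9 to 34.0%), against 1.40% of the other gated cells, 1.28% of basal cells and 0.749% of leukocytes. Unthinned, these shares were 48.1% in members and 11.2% in other gated cells. In suffix _2 the thinned share was 4.82% in members (1.33 to 11.9%) and 0.0265% in other gated cells, and 0 of 35 leukocytes had a UMI. The marker is thus seen in a part of the members, and in a smaller part in suffix _2. The basal keratin Krt14 was at 75.9 CPM in members and 76.6 CPM in other gated cells of suffix _1, and at 81.9 and 36.7 CPM in suffix _2. The 11 listed basal genes summed to 2797.5 against 1124.5 CPM in suffix _1 and 1734.5 against 132.3 CPM in suffix _2. Of those at 50 CPM or more, 1 of 5 (Krt15) was higher by 2-fold in suffix _1 and 6 of 7 in suffix _2. Over all genes these shares were 2.58% and 16.1%. A Krt5 UMI was held by 16.5% of suffix _1 members and 2.35% of suffix _2 members. Leukocyte markers were low: of 9 listed genes 1, Srgn, reached 50 CPM, and the 9 summed to 124 CPM in suffix _1 members and 157 CPM in suffix _2 members. Srgn itself was at 118 against 25.9 CPM and at 151 against 12.2 CPM, and its source was not tested. Smooth muscle genes summed to 1.22 and 4.75 CPM, endothelial genes to 6.31 and 17.8 CPM, and neuroendocrine, tuft and ionocyte genes to 7.30 and 13.7 CPM in members of suffix _1 and _2. None of the genes of these 3 lists reached 50 CPM.

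Among the 14 other proximal luminal genes, none was lower by 2-fold in members. A gene was counted as higher or lower here when log2((CPM + 10)/(CPM + 10)) was at least 1 in size and 1 side held at least 50 CPM. In suffix _1, 5 of 12 such genes were higher and the median was 0.86. Of all genes, 2.58% were higher and 2.1% lower, with a median of -0.06. In suffix _2, 10 of 10 were higher with a median of 2.93, where 16.1% of all genes were higher and 9.61% lower and the median was -0.02. Because the score selected on cells of this profile, these counts describe the members and are no independent evidence. Psca, the surface protein prostate stem cell antigen, was at 7221 against 1006 CPM in suffix _1 and 3491 against 109 CPM in suffix _2. In suffix _2, 59.9% of its UMIs in members came from the 5 highest of 85 cells. Krt7, a simple epithelial keratin, was at 533 against 234 CPM and 749.8 against 46.5 CPM. Ly6d was at 529 against 310 CPM in suffix _1, short of 2-fold, and at 892 against 52.0 CPM in suffix _2. Clu, the chaperone clusterin, differed in direction: members held 6681 CPM against 9425 CPM in suffix _1, and 14007 against 1010 CPM in suffix _2.

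Distal secretory genes were lower in members at the cut used here, and in suffix _2 this depended on the cut. In suffix _1, 9 of 10 listed genes were lower by 2-fold or more, with a median of -2.10. The exception, Mme, was at 194 against 256 CPM. In suffix _2, 8 of 9 were lower, with a median of -2.49, and the ninth, Spink1, stood at 231 against 384 CPM with 85.1% of the member UMIs in 1 cell. Pbsn was at 544 CPM in members and 3693 CPM in other gated cells of suffix _1, and at 7.72 and 354 CPM in suffix _2. The log2 ratio was -2.76 (-2.79 to -2.74) and -5.52 (-6.43 to -4.75). Tgm4, a transglutaminase of the ejaculate, was at 248 against 2209 CPM and 39.8 against 856 CPM. Msmb, beta-microseminoprotein, was at 1943 against 10311 CPM in suffix _1 and 11.9 against 74.9 CPM in suffix _2. Member levels of several of these genes rested on few cells. In suffix _1, 43.8% of Sbp UMIs and 70.0% of Sbpl UMIs in members came from 1 cell. In a clustering of the members, sub-cluster 5 had 55 cells and a median score of 1.22, near the cut. It held Pbsn at 3720 CPM, compared with 179 CPM in the rest of the members of both suffixes, and Msmb at 13885 against 578 CPM. Tgm4 was at 954 CPM in the 144 cells of sub-cluster 1 and at 27.7 CPM in the rest. In suffix _2 the list median turned from -2.49 to 0.23 with the top 10% of the score, where Sbp, Sbpl and Msmb were higher in members (1.69, 1.88 and 1.90 on the log2 scale with 10 CPM added). It was 1.15 with the top 7% taken within each suffix, with Defb50 at 0.69 and Msmb at 3.66.

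**Figure D2:**
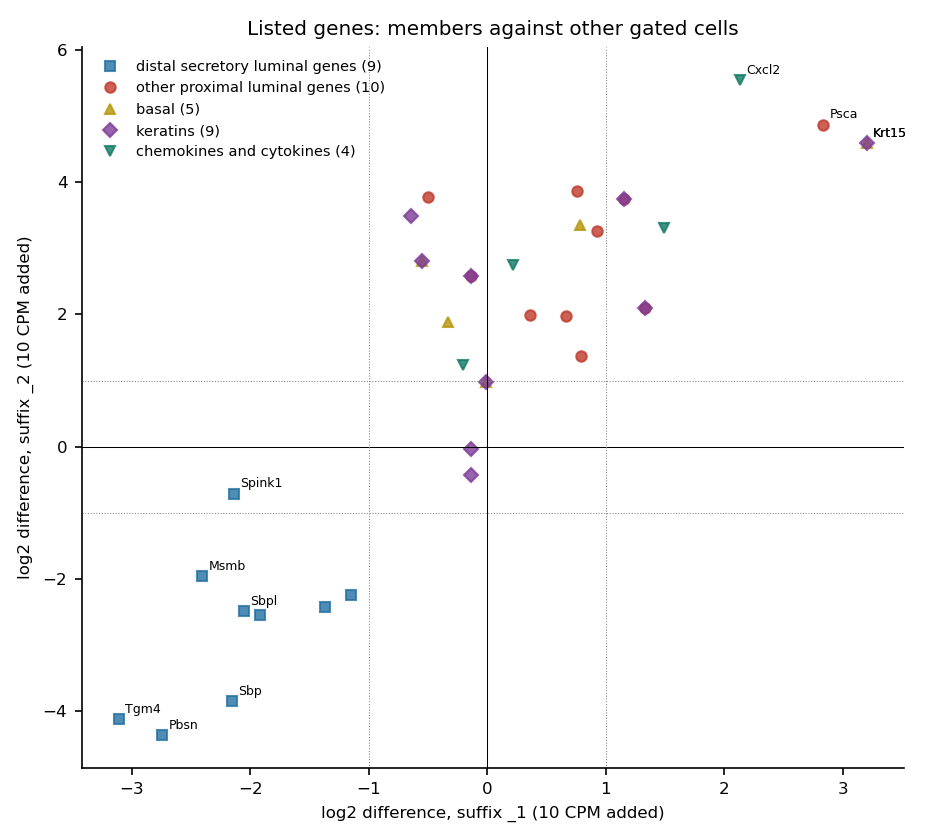
Log2 difference between members and other gated cells with 10 CPM added, suffix _1 on the x axis and suffix _2 on the y axis, for listed genes with at least 50 CPM on a side in both suffixes; dotted lines mark 2-fold. At the cut used here the 9 distal secretory genes lie below 0 on both axes (their suffix _2 median is 0.23 with the top 10%), while the 10 proximal genes lie above 0 in suffix _2.

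The starts of Wfdc2, the gene with the highest mean difference, and of Pbsn, an androgen-regulated gene that was low in members, are shown here for reference. The sequences are from RefSeq on GRCm38.p6, 250 bases before to 50 after the start site. Wfdc2 lies at chr2:164562715-164568510 and Pbsn at chrX:77837898-77853500; Cxcl17 lies at chr7:25400053-25412886 and Psca at chr15:74714839-74717065. Capitals mark matches on either strand to the androgen receptor half-site AGAACA, to the AP-1 motif TGANTCA or to the FOXA motif TGTTTAC.
Wfdc2, chr2:164562465-164562764, plus strand: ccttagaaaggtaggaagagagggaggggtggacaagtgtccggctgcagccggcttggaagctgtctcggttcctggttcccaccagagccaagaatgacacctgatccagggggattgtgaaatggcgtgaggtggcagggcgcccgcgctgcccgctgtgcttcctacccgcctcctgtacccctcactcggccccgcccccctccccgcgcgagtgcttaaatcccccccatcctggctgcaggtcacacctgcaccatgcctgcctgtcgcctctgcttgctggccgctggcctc
Pbsn, chrX:77853451-77853750, minus strand: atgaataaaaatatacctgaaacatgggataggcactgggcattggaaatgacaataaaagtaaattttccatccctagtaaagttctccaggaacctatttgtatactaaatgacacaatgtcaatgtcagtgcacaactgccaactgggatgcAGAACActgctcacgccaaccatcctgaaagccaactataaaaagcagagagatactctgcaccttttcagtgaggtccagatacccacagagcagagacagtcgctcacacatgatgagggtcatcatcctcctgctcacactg
The Pbsn window held 1 match, to AGAACA, and the Wfdc2 window held 0 of the 3 motifs. Of the 27025 promoters in the table, 19.0% held AGAACA, 7.93% TGANTCA and 3.55% TGTTTAC. Of the genes higher in members of both suffixes, 37 had a promoter in the table and 3 of these held AGAACA (8.11%). Of the genes lower in both, 18 had one and 3 held AGAACA (16.7%). Among the genes that reached 50 CPM in both suffixes, the share was 10.2%. A match is a run of letters and not a bound site.

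Over all genes, 54 of 2727 (1.98%) were at least 2-fold higher in members of both suffixes and 33 (1.21%) were at least 2-fold lower. Besides the genes of the score, the 15 with the highest mean difference were Ltf, Krt15, Psca, Cxcl2, Fxyd4, Kcnn4, Anxa1, Prss22, Tspan8 and Nupr1. Ltf encodes lactoferrin, an iron-binding protein of mucosal secretions. It was at 62.6 CPM in members of suffix _1 and 0.370 CPM in the other gated cells, and at 494.5 and 0.312 CPM in suffix _2. A Ltf UMI was present in 8.32% of suffix _1 members and 55.3% of suffix _2 members. Thinned to 3000 UMIs, these shares were 3.59% (2.31 to 5.29%) and 37.3% (27.0 to 48.7%), against 0.124% and 0.0663% of the other gated cells. Leukocytes held 0 Ltf UMIs in either suffix. Krt15, a keratin of basal and proximal cells, was at 1857 against 193 CPM and 791 against 23.3 CPM, below the 4092 and 2030 CPM of basal cells. Cxcl2, a neutrophil chemokine, was at 837 against 184 CPM and 1237 against 16.6 CPM. In suffix _2 both rested on few members: a Krt15 UMI was seen in 32.9% of them, and the 5 highest of 85 cells gave 73.05% of the Krt15 UMIs and 67.7% of the Cxcl2 UMIs. The lowest 15 included 9530053A07Rik, Tgm4, Pbsn, Sbp, C1rb, Rnase1, Cd52, Gm5615, Defb1, Spink8, Sbpl, Defb50, Msmb and Slc30a2. Defb50, a beta-defensin of the distal epithelium, was at 3515 against 13290 CPM in suffix _1 and 333 against 1998 CPM in suffix _2.

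Secreted defence and immune signalling genes were described by list. Over all genes, 2.58% were higher and 2.1% lower in suffix _1, and 16.1% were higher and 9.61% lower in suffix _2. Of 4 mucosal defence genes at 50 CPM or more, 2 were higher in suffix _1 and 3 in suffix _2. Pigr, the receptor that carries polymeric immunoglobulin across epithelia, was at 946 against 464 CPM and 413 against 26.02 CPM. Lcn2, a siderophore-binding protein, was at 640 against 451 CPM, short of 2-fold, and at 999 against 46.1 CPM. Of 5 chemokine genes, 3 were higher in suffix _1 and 5 in suffix _2. Cxcl1 was at 439 against 150.3 CPM and 427 against 34.0 CPM. Cxcl5, another neutrophil chemokine, was at 1166 against 0.831 CPM in suffix _2, and at 10.7 CPM in members of suffix _1. MHC class I genes gave 0 of 6 higher in suffix _1 and 2 of 4 in suffix _2, and class II genes 0 of 6 and 1 of 1.

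Detoxification and transport genes varied. Of 10 xenobiotic and aldehyde metabolism genes, 2 were higher in suffix _1 (Gsta4 and Gsto1), and 3 were higher and 2 lower in suffix _2. Over all genes, 2.58% were higher in suffix _1, and 16.1% were higher and 9.61% lower in suffix _2. With 10 genes read, no conclusion is drawn from the counts of suffix _2. Gsto1, a glutathione transferase, was at 1406 against 383 CPM and 163 against 15.2 CPM. Aldh1a3, which makes retinoic acid, was at 85.0 against 39.9 CPM and 182 against 9.89 CPM. Gsta3 and Cbr1 were the lower genes of suffix _2, at 97.4 against 327 CPM and 76.6 against 174 CPM. Of 4 ion and water transport genes, 1 was higher in suffix _1 and 3 in suffix _2. Slc12a2, a sodium, potassium and chloride cotransporter, was at 917 against 443 CPM and 407 against 64.3 CPM.

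Keratin and junction genes were set against the other gated cells of the same suffix. The shares over all genes were 2.58% higher and 2.1% lower in suffix _1, and 16.1% higher and 9.61% lower in suffix _2. Of 9 keratins, 3 were higher in members of suffix _1 and 6 in members of suffix _2. Between the members of the suffixes, 0 keratins were higher and 1 lower in suffix _2, beside 4.63% and 5.54% of all genes. Krt23 was at 574 against 221.5 CPM and 334 against 70.2 CPM. Krt19 was at 4918 against 5402 CPM in suffix _1 and 4427 against 728 CPM in suffix _2, so that member levels were alike and the other cells differed. Of 7 claudin and tight junction genes, 0 were higher and 1, Cldn8, lower in suffix _1, and 3 were higher in suffix _2. Basal genes gave 1 of 5 higher in suffix _1 (Krt15) and 6 of 7 in suffix _2. Lama3 and Lamb3, chains of laminin 332, stood at 138 against 1.34 CPM and 84.9 against 1.52 CPM in suffix _2. Urothelial genes gave 0 of 2 in suffix _1, and 1 higher and 1 lower of 3 in suffix _2, with Upk1b at 177.5 against 30.3 CPM and Upk2 at 10.7 against 52.1 CPM. Of 5 seminal vesicle genes in suffix _2, 5 were lower in members, and the list summed to 205 CPM in members and 2985 CPM in the other gated cells.

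Epithelial transcription factors, pathway genes and cell cycle genes were read in the same way, beside 2.58% of all genes higher and 2.1% lower in suffix _1, and 16.1% higher and 9.61% lower in suffix _2. Of 8 lineage factors, 0 were at least 2-fold apart in suffix _1 and 4 were higher in suffix _2. Sox9 was at 455 against 424 CPM and 571 against 169 CPM, and Elf3 at 163 against 104 CPM and 234.5 against 61.0 CPM. Of the androgen receptor targets outside the secretory list, 0 of 8 were apart in suffix _1 and 3 of 6 were higher in suffix _2. Pmepa1 stood at 399 against 343 CPM and 1354 against 27.1 CPM. Fkbp5, a chaperone induced by the receptor, was at 83.6 against 97.1 CPM and 41.6 against 52.3 CPM. Of 3 Wnt target and feedback genes in suffix _1, 0 were apart. In suffix _2, 6 of 9 were lower in members and 1, Tcf7l2, was higher. Axin2, a feedback inhibitor of Wnt signalling, was at 41.0 CPM in members and 178 CPM in the other gated cells, with a log2 ratio of -2.12 (-2.48 to -1.78). Wif1, a secreted Wnt inhibitor, was at 86.7 against 360.2 CPM, and Nkd1 at 46.3 against 245 CPM. Of the genes of the insulin-like growth factor axis, 1 of 4 was higher in suffix _1 and 2 of 5 in suffix _2. Igfbp7, a binding protein, was at 204 against 36.4 CPM and 658 against 76.5 CPM. Igf1r, the receptor, was at 58.8 against 66.8 CPM and 93.8 against 90.1 CPM, a log2 ratio of -0.18 (-0.27 to -0.09) and 0.06 (-0.18 to 0.29). None of the 10 proliferation genes reached 50 CPM. They summed to 84.0 CPM in members and 68.8 CPM in other gated cells of suffix _1, and to 54.0 and 200.0 CPM in suffix _2. Of the 11 immediate early and heat shock genes, 0 were apart in suffix _1, and 1 was higher (Dusp1) and 1 lower (Atf3) in suffix _2.

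**Figure D3:**
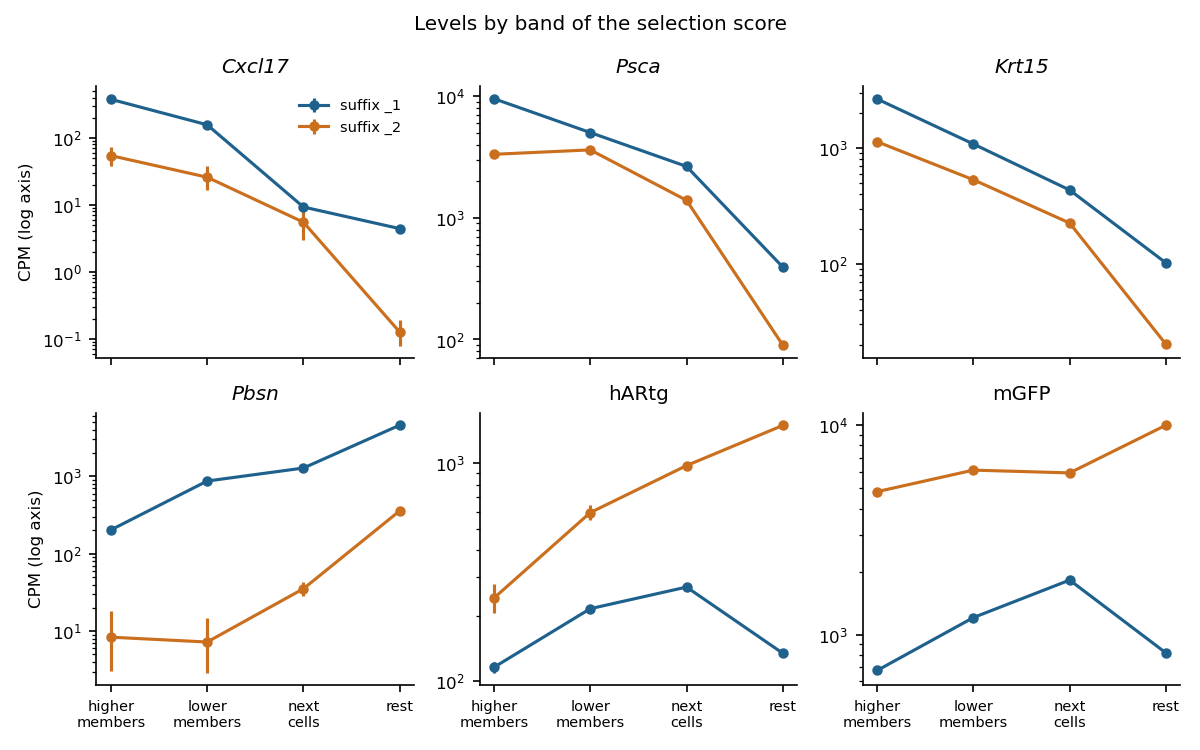
CPM (log axis, 95% Poisson intervals) of 6 genes in 4 bands of gated cells ordered by score: the higher-scoring and lower-scoring members, an equal number of cells below the cut and the remaining cells, per suffix. Cxcl17 and Krt15 are highest and Pbsn is lowest or near its lowest in the members, and hARtg in suffix _2 is lowest in the higher-scoring members.

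Ordered by score, Cxcl17 in suffix _1 was at 377 CPM in the higher-scoring members, 157 CPM in the lower-scoring members, 9.28 CPM in the next band of gated cells, as many again as the members, and 4.41 CPM in the rest. Psca ran from 9520 to 5018, 2643 and 393 CPM. Pbsn ran the other way, from 203 to 871, 1283 and 4594 CPM. Cxcl17 dropped most at the cut, and Psca and Pbsn changed in steps over the 4 bands.

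The transgene was present in members of both suffixes. In suffix _1, hARtg was at 167 CPM in members and 172 CPM in the other gated cells, a log2 ratio of -0.04 (-0.10 to 0.01). In suffix _2 it was at 444 CPM and 1486 CPM. Leukocytes, outside the epithelial Osr1 lineage that carries it, held 9.31 and 57.4 CPM. After thinning, 23.6% of suffix _1 members held an hARtg UMI (20.4 to 27.0%), compared with 18.5% of other gated cells (16.9 to 20.1%), 32.2% of basal cells and 2.62% of leukocytes. In suffix _2, 36.1% of members did (25.9 to 47.4%), compared with 91.2% of other gated cells (90.5 to 91.8%), 64.7% of basal cells and 17.1% of leukocytes (6.56 to 33.7%). The member and leukocyte intervals overlap in suffix _2, so a part of these UMIs can be background. Unthinned, the shares in members were 57.2% and 58.8%, at the median UMIs given above, and those in leukocytes 3.02% and 33.3% at medians of 3562 and 5485 UMIs. mGFP was at 948 against 1093 CPM in suffix _1 and 5553 against 9932 CPM in suffix _2. In suffix _2 the thinned mGFP share was 90.4% in members, 97.8% in other gated cells and 57.1% in leukocytes. Along the score in suffix _2, hARtg was at 241 CPM in the higher-scoring members, 595 CPM in the lower-scoring members, 977 CPM in the next band and 1494 CPM in the rest. In suffix _1 it was at 116, 215, 271 and 134.5 CPM. Its level there depended on the cut: the log2 ratio in suffix _1 was -0.42 with the top 5% of the score and 0.38 with the top 10%.

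Members of suffix _1 with 3 or more hARtg UMIs were set against members with 0. The transgene is active only where Cre has acted. A cell with 0 UMIs can thus lack an active transgene, or its transcripts were not captured, and these were not told apart. There were 206 members with 3 or more hARtg UMIs, 179 with 1 or 2 and 288 with 0, with median UMIs of 34683, 30136 and 23115, so depth moved with the split. In suffix _2 there were 29, 21 and 35, too few to compare. Between 3 or more and 0, 52 of 2968 genes (1.75%) were higher and 29 (0.977%) lower by 2-fold. Split at 1 or more UMIs, the counts were 29 and 9. After each cell was thinned to 3000 UMIs, 158 members with an hARtg UMI and 511 without one had medians of 27839 and 27234 UMIs before thinning, and 44 genes were higher and 17 lower. The lineage reporter mGFP was among the highest, at 2530 against 57.7 CPM, and leukocytes of suffix _1 held 35.4 CPM. The split thus went with the lineage reporter. Gm12888 was at 2598 against 6.61 CPM and Gm12886 at 401 against 0.778 CPM. Gsta3, a glutathione transferase, was at 362 against 26.2 CPM, and Psca at 15164 against 2702 CPM. Spink1, a trypsin inhibitor of the secretions, was at 296 against 25.4 CPM, but 85.3% of its UMIs in suffix _1 members came from 5 cells. Of 9 distal secretory genes, 4 were higher (Msmb, Spink1, Defb50 and Azgp1) and 0 lower, with a median of 0.85 against -0.07 over all genes. Pbsn was at 470 against 475.5 CPM and did not share this. Of the other proximal genes, 2 of 12 were higher (Psca and Ly6a) and 2 lower (Krt23 and Aldh1a3). The lowest genes were Jchain, Hbb-bs, Ltf, Hba-a1, Cma1, Reg3g, Krt17, Tm4sf1, Aldh1a3 and Ccl20. Jchain stood at 6.26 against 383 CPM, and 96.4% of its UMIs in suffix _1 members came from 1 cell. The same held for the haemoglobin genes Hbb-bs (96.7%) and Hba-a1 (98.7%). Ltf was at 1.198 against 83.9 CPM, a log2 ratio of -6.13 (-7.27 to -5.20), with 65.9% of its UMIs in 5 cells. This difference rested on the split: with 10 CPM added, the log2 value of Ltf was -3.07, and it was -0.64 with 1 or more UMIs and -0.19 with the thinned split. Lypd8 was at 0.96 with the thinned split, while Gm12888 (4.37), mGFP (3.27) and Gsta3 (2.32) were each above 2-fold there.

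Members of the suffixes differed from each other. Of 3195 genes, 148 (4.63%) were higher in members of suffix _2 and 177 (5.54%) lower. The same comparison over the other gated cells gave 297 of 3288 genes higher (9.03%) and 505 lower (15.4%). The largest excess was that of Cxcl5, at 1166 CPM in members of suffix _2 and 10.7 CPM in those of suffix _1. Its levels in the other gated cells were 0.831 and 0.123 CPM. Spp1, the secreted phosphoprotein osteopontin, was at 202 against 0.141 CPM in members and 0.943 against 0.0274 CPM in other gated cells, and leukocytes of suffix _2 held 242 CPM. Onecut2, a transcription factor, was at 177 against 0.330 CPM, and Cxcl3 and Vcam1 were also higher in members with other gated cells at 1.76 and 1.61 CPM in suffix _2. In members of suffix _2, 5 cells gave 70.3% of the Spp1 UMIs, 70.9% of the Cxcl3 UMIs and 73.0% of the Vcam1 UMIs, and a single cell gave 34.7% for Spp1 and 39.9% for Vcam1. For Cxcl5 and Onecut2 the 5 highest cells gave 43.7% and 38.6%. Other genes of this group differed as much in the other gated cells. The alpha-defensin Defa22 was at 210.7 CPM in members and 210.9 CPM in other gated cells of suffix _2, with 0 UMIs in suffix _1 members. In members 73.5% of its UMIs came from 1 cell, and Defa21 was similar (74.7%). Rpl29, Gm8730, Gm10260 and the alpha-defensins can share reads with near-identical copies, and their levels are uncertain.

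Genes of antigen presentation were lower in suffix _2, in members and other cells alike. Of 6 MHC class II genes, 6 were lower with a median of -4.87, and of 6 class I genes, 6 were lower with a median of -2.45, beside a median of -0.03 over all genes. Cd74, the invariant chain, was at 4202 CPM in members of suffix _1 and 128 CPM in members of suffix _2, and at 3643 and 21.1 CPM in the other gated cells. H2-Aa was at 990 and 13.7 CPM in members and 648 and 7.55 CPM in other gated cells. H2-K1 was at 7729 CPM in members of suffix _1 and 1106 CPM in members of suffix _2. Msmb, Pbsn and Wfdc3 were lower in suffix _2 in both cell groups. Between members this turned with the top 7% taken within each suffix: the log2 difference with 10 CPM added went from -6.48 to 0.44 for Msmb, from -4.97 to 0.057 for Pbsn and from -3.62 to 2.06 for Wfdc3. Agr2, a protein disulfide isomerase of mucous cells, was at 1186 and 92.0 CPM in members and 667 and 123 CPM in other gated cells. Itln1, an intestinal lectin, was at 195 CPM in members of suffix _1 and at 0 UMIs in those of suffix _2.

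**Figure D4:**
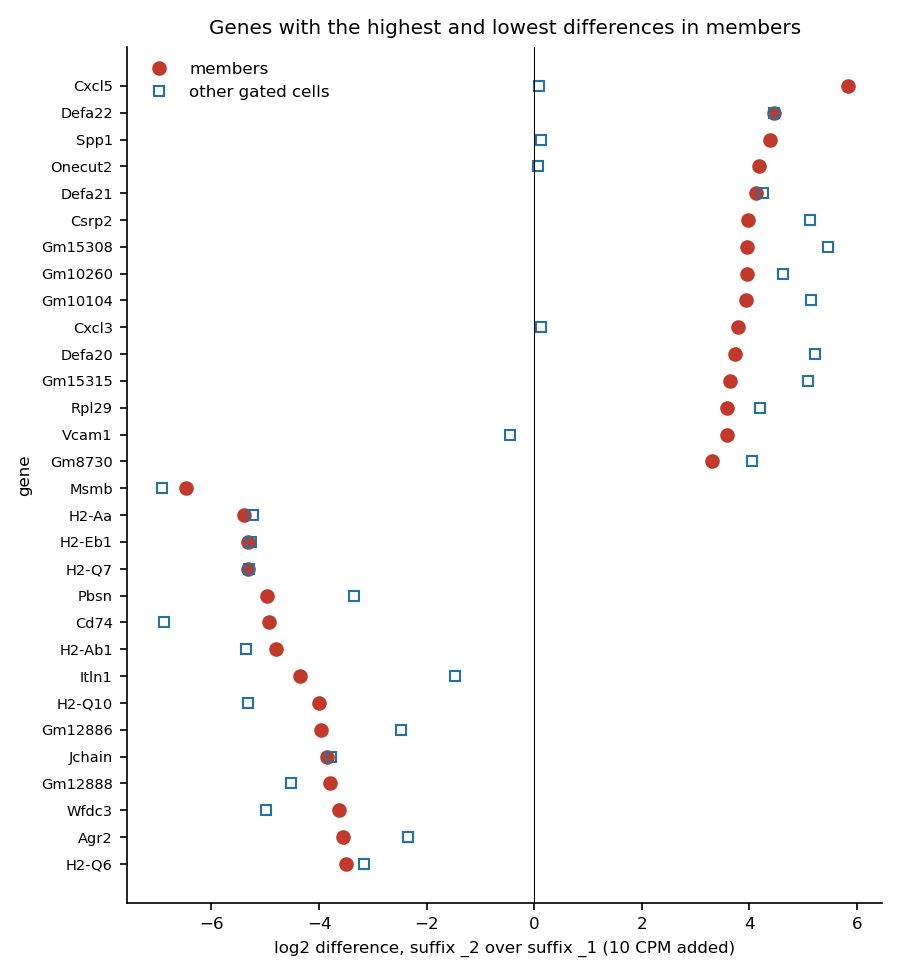
Log2 difference of suffix _2 over suffix _1 with 10 CPM added, for the 15 highest and 15 lowest genes in members (filled circles) and for the other gated cells (open squares). Cxcl5, Spp1, Onecut2, Cxcl3 and Vcam1 are high in members and near 0 in the other gated cells, whereas the MHC genes are low in both.

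The members were not uniform. Clustering of the 758 cells gave 8 sub-clusters, which are described by number, since their leading genes are those that formed them. Sub-cluster 0 held 191 cells, all of suffix _1 (28.4% of its members). Its leading genes were Cxcl17 (798 CPM against 74.4 CPM in the other members), Itln1, Oit1, Piezo2 and Serpinb11, and it held Agr2 at 2892 CPM and Cyp2f2 at 663 CPM. Msln was low, at 6.37 CPM. Sub-cluster 2 (136 cells, 134 of suffix _1) had the highest Wfdc2, at 9245 CPM, with Krt16, Ly6d at 1651 CPM, Areg and Ltf at 324 CPM among its leading genes. Jchain ranked highest there through 1 cell. Sub-cluster 3 (95 cells, 82 and 13) had Psca at 30378 CPM, with Lypd8, Fxyd4 and Ly6c1. Sub-cluster 4 held 67 cells, all of suffix _2 and 78.8% of the members there. It led with Cxcl5, Defa22, Spp1 and Onecut2, and held Msln at 1726 CPM and Ltf at 582 CPM. Wfdc2 and Krt4 were lower there than in the other members, at 3004 against 4369 CPM and 192 against 470 CPM. Cbr2 (213 against 1209 CPM) and Cyp2f2 (129 against 357 CPM) were lower too. So were Cxcl17 (27.2 against 262 CPM), Psca (1261 against 7306 CPM) and Krt15 (247 against 1875 CPM). Krt7, Ly6d and Clu were higher. Since sub-cluster 4 came from 1 library, it cannot be told apart from a library effect. The same limit holds for sub-clusters 0 and 6, with all cells from suffix _1. It nearly holds for sub-clusters 1, 2, 5 and 7, which had at most 2 cells of suffix _2 each.

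In 2 sub-clusters the leading genes included distal secretory genes, which go against the proximal label. Sub-cluster 1 (144 cells, 143 of suffix _1) led with 9530053A07Rik, Tgm4 at 954 CPM and Prr9, and the haemoglobin genes among its leading genes came mostly from 1 cell, as given above. Sub-cluster 5 (55 cells, 54 of suffix _1) led with Gm12886, Spink1 and Gm12888, and held Msmb at 13885 CPM and Pbsn at 3720 CPM. Their median scores were 1.35 and 1.22, while those of sub-clusters 0 and 2 were 1.84 and 2.22. Against the other gated cells of suffix _1, their profile was mixed. Psca was at 3475 CPM in sub-cluster 1, 4325 CPM in sub-cluster 5 and 1006 CPM in those cells. Krt15 was at 597, 579 and 193 CPM, and Krt7 at 553, 218 and 234 CPM. Tgm4 in sub-cluster 1 lay below the 2209 CPM of those cells. Pbsn and Msmb in sub-cluster 5 lay above their 3693 and 10311 CPM. These cells met the score, but the proximal name is uncertain for them. Sub-cluster 6 (37 cells of suffix _1) led with Ccl20, Ubd, Stmn1 and Ube2c and held the cell cycle genes Top2a (63.7 CPM against 1.58 CPM in the other members), Birc5 and Cdk1, as well as Cd74 at 13876 CPM. Sub-cluster 7 (33 cells, 32 of suffix _1) led with Lgals7, Apoe, Sult5a1, Dcn and Cpe, with Dcn, a proteoglycan that marks fibroblasts, at 520 CPM against 44.0 CPM. Of the sub-clusters it also held the highest Krt5 (43.7 CPM against 9.53 CPM in the other members) and Krt14 (262 against 67.8 CPM). The 6 listed fibroblast genes summed to 2037.5 CPM in basal cells of suffix _1 and 66.9 CPM in members. Whether basal or stromal RNA had a part in these levels was not tested. Cells at or over the doublet limit numbered 3 in sub-cluster 0 and at most 1 in each of the others.

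**Figure D5:**
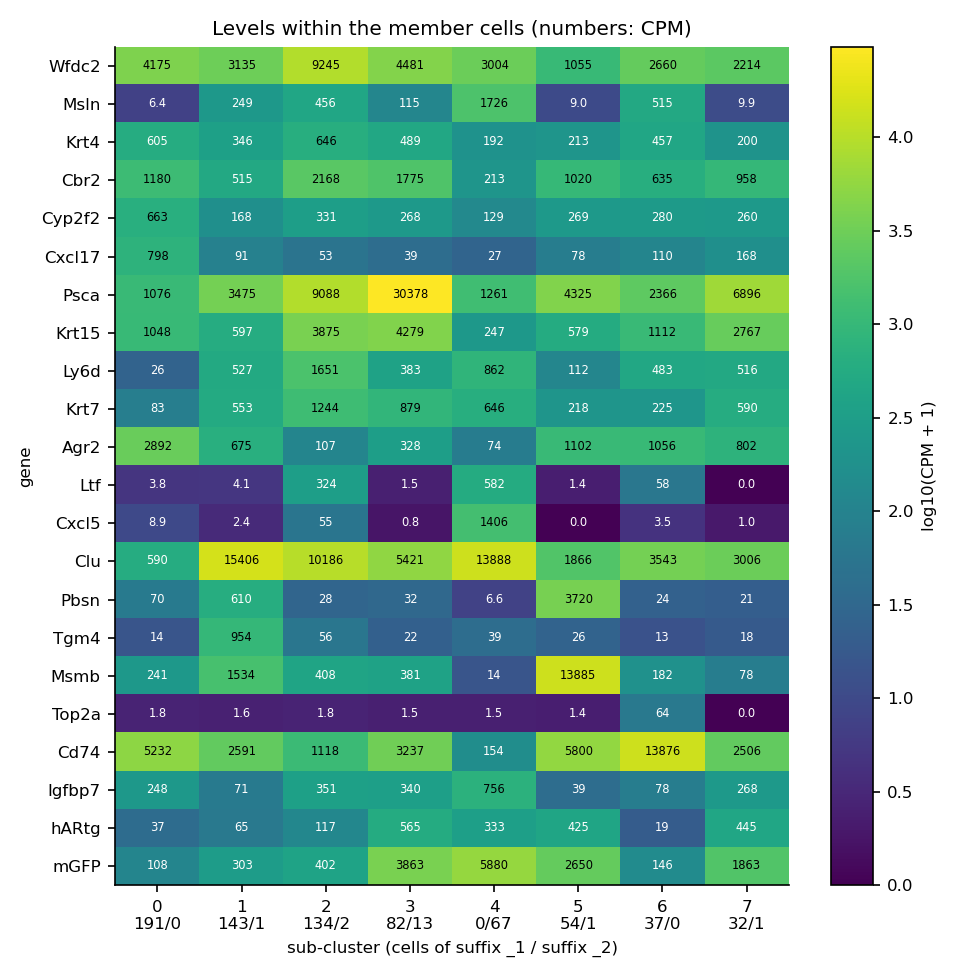
CPM of 22 genes in the 8 sub-clusters of the members, coloured by log10(CPM + 1), with the cells of suffix _1 and suffix _2 under each number. Cxcl17 and Agr2 are highest in sub-cluster 0, Psca in sub-cluster 3, Tgm4 in sub-cluster 1 and Msmb in sub-cluster 5.

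The transgene level differed between the sub-clusters. hARtg and mGFP were not left out of the genes that the clustering could draw on, so these values describe the sub-clusters only. In suffix _1, 74 of 82 cells of sub-cluster 3 (90.2%) held 3 or more hARtg UMIs and 0 cells held none, with hARtg at 496 CPM and mGFP at 3675 CPM. In sub-clusters 5 and 7, 70.4% and 65.6% of the cells held 3 or more. In sub-clusters 0, 1, 2 and 6 the shares were 14.1%, 13.3%, 17.9% and 8.11%, with hARtg at 37.5, 64.7, 119 and 18.9 CPM. In sub-cluster 4 of suffix _2, 25.4% of the cells held 3 or more and 47.8% held 0, although mGFP was at 5880 CPM. The genes that differed with hARtg in suffix _1 (Psca, Lypd8, Gm12888, Spink1) include leading genes of sub-clusters 3 and 5. For the same reason this overlap is no independent evidence.

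Within suffix _1 members (n = 673 cells of 1 library, which share depth and background), Cxcl17 values ran with Agr2 (Spearman rho 0.64) and Cyp2f2 (0.58), and against Psca (-0.51) and Krt7 (-0.56). Psca ran with Krt7 (0.64) and against Agr2 (-0.56). The pattern was not seen in suffix _2 members (n = 85 cells, 12 of them with a Cxcl17 UMI). There rho of Cxcl17 was 0.13 with Agr2, 0.297 with Cyp2f2, 0.179 with Psca and 0.155 with Krt7. Psca gave 0.19 with Krt7 and 0.27 with Agr2. These values describe the cells and carry no p.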

How the data were processed

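Single-cell RNA was measured in PIN and PCa prostate tissue (10x Genomics Chromium 3' chemistry, version 2), 1 library each. Per the submitters' processing notes, reads were counted with Cell Ranger 3.1.0 on mm10. The study added the mGFP and hARtg sequences to the genome. By their names, ARQ was read as hARtg and EGFP as mGFP. The deposited values are natural log values, which the authors made as ln(1 + 10000 × UMIs / total UMIs) per cell. All values above 0 came back as whole UMIs within 0.001 (19320 features, 15742 cells, 1722 to 89183 UMIs per cell). The 2 duplicated feature names are gene symbols turned into dates. The members, gene lists and contrasts were chosen with earlier results of these data known.

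UMIs were summed per class and suffix and scaled to CPM. Intervals were exact Poisson (levels), Clopper-Pearson (shares) and conditional binomial (ratios), all at 95% and for counting error only; a sum of 0 would be set to 3 UMIs in a ratio. Basal cells had Epcam above 0, Krt5 of 1 or more and Ptprc at 0; leukocytes had Ptprc above 0 and Epcam and Krt8 at 0. Scrublet (scanpy 1.11.5, Python 3.11.15) scored doublets, and 155 and 175 cells were at or over 0.25; they were kept, and left out in an alternative. Members were clustered by the Leiden method (1000 variable genes, 20 components, 15 neighbours, resolution 0.5). The text names the genes of the score, gate and lists, the 15 highest and lowest genes of the first 2 contrasts, the 10 of the hARtg split, the leading genes of sub-clusters, and genes of opposite sign in the suffixes. Ratios and UMI recovery were tested on simulated data. Alternatives changed the cut, the score, the gate, thinning, weighting, scaling and filters. Comparisons of PIN with PCa were not made, and a few genes are not reported here.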

Additional observations from a re-analysis of the deposited data

Results flagged for a closer look

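Of the genes at 50 CPM or more in both suffixes, 2 were at least 2-fold apart between members and other gated cells in opposite directions. Dnajc10, a chaperone of the endoplasmic reticulum, was at 232 CPM in members and 620.4 CPM in other gated cells of suffix _1 (-1.38 on the log2 scale with 10 CPM added), and at 261 and 83.2 CPM in suffix _2 (1.54). Flrt3, a membrane protein with leucine-rich repeats, was at 28.7 and 80.5 CPM in suffix _1 (-1.23) and at 57.0 and 22.8 CPM in suffix _2 (1.03). With 1 library per suffix, the difference between the suffixes was not tested.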

How the results depend on the processing

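Each tissue had 1 library, so no replicate could be left out. No paired analysis was possible because no result came from a test. Of 1566 values recomputed, 999 stayed within their counting interval, or within 1.5-fold for counts of genes. Depth limits suffix _2 most, where 85 members gave 1684546 UMIs.

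The share of members in suffix _1 was 15.6% with the top 5% of the score, 30.6% with the top 10% and 23.5% with Krt5 at 0 UMIs, and in suffix _2 it was 0.7142% and 1.636% with the first 2. The hARtg log2 ratio of members to other gated cells in suffix _1 was -0.42 (top 5%), 0.38 (top 10%), -0.51 (top 7% within each suffix), -0.14 (Cxcl17 in place of Cyp2f2), 0.017 (thinned score) and 0.15 (Krt5 at 0), so its sign was not stable. In suffix _2 it was -2.18 (top 5%), -1.30 (top 10%), -0.63 (within each suffix), -1.59 (Krt5 at 0) and -1.96 (mean of single cells), each below 0.

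With the top 10%, 20 genes were lower in members of both suffixes, 46 were lower with hARtg, and in suffix _2 the distal secretory median was 0.23, Sbp 1.69, Sbpl 1.88 and Msmb 1.90. With the top 7% taken within each suffix, which kept 303 of the 758 members, 7 genes were lower in both suffixes, 300 were lower in suffix _2 members than in suffix _1 members and 59 were lower with hARtg. In suffix _2 the distal secretory median was then 1.15, Sbp 4.36, Sbpl 4.49, Defb50 0.69 and Msmb 3.66, and between the suffixes Msmb was 0.44, Pbsn 0.057 and Wfdc3 2.06. With the thinned score, Sbp was 1.05 and Sbpl 1.39 in suffix _2. The cause of these reversals was not tested. With Krt5 at 0, Jchain was 0.04 in the hARtg split.

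With genes of at least 10 CPM, 104 were higher and 50 lower in both suffixes, 275 and 280 between the suffixes, and 79 and 44 in the hARtg split, since more genes were read. With hARtg split at 1 or more UMIs the counts were 29 and 9, and after thinning 44 genes were higher and 17 lower. Leaving out doublets or genes over 1% of UMIs moved none of these counts, shares or hARtg ratios beyond those limits.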
